A study of Mus musculus with 8 samples.

Results

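The 8 genes described here are among those whose levels in striatal macrophages differ most between inbred mouse strains: Fcrls, Ccdc85a, P3h2, Tafa2, Serinc3, Gatm, Dlgap1 and Csmd3. They are 8 of the 32285 genes in the count matrices and were chosen by the size of their strain effect in the macrophage cluster, so their macrophage values are given as a description, with no test. Among the 3858 genes that passed the filter on low counts in macrophages, all 8 fell within the top 14 by the F statistic of the strain term, at ranks 2, 4, 5, 6, 7, 10, 12 and 14. The other 6 genes of the top 14 are Cwc22 (rank 1), Slc1a3, Kcnma1, AC149090.1, Fbxl7 and Nav3. The member with the smallest F was P3h2 (57.9), and the next gene in the ranking, Prkd1, had 57.3.

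The study profiled nuclei from the striatum of 32 mice by joint single-nucleus RNA and chromatin accessibility sequencing. The mice were 12 weeks old, no treatment is named in the labels, and they came from 8 inbred strains: A/J, C57BL/6, 129S1/SvImJ, NOD/ShiLtJ, NZO/HlLtJ, CAST/EiJ, PWK/PhJ and WSB/EiJ. The C57BL/6 substrain is named differently in the design text and the cell table, so it is called C57BL/6 here. Each of 4 batches pooled the nuclei of 8 mice, 1 per strain and 4 of each sex, and the authors assigned nuclei to strains by genotype. Each strain therefore has 4 mice, 1 in each batch, and every test below compares mice, not nuclei.

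Brain macrophages are mostly microglia, the resident immune cells of brain tissue, which survey it with motile processes, engulf debris and synapses, and keep their identity through a small set of transcription factors that includes the ETS-family factor PU.1. A smaller population lines the vessels and meninges. Neither Csmd3 nor Dlgap1 is a classical macrophage gene: both are best known from neurons, in which Dlgap1 encodes a scaffold protein of the postsynaptic density.

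The macrophage cluster held 2638 of 55672 annotated nuclei and 3988683 counts, with 24 to 220 nuclei and 27325 to 365425 counts per mouse and a median of 1432 counts per nucleus. All 15 microglia markers checked, among them P2ry12, Tmem119 and Cx3cr1, were highest in this cluster of the 18, with a summed level of 16058 CPM (a gene's counts scaled to a common library total, here over all counts of the cluster). The 7 perivascular macrophage markers summed to 122 CPM, the 4 monocyte markers to 14.5 and the 4 fibroblast markers to 2.76, with Col1a1 at 0. Markers of other cell types were also counted: the 6 oligodendrocyte markers summed to 4870.3 CPM and the 8 neuron markers to 614. Between 0 and 1 macrophage barcodes were shared by any pair of batches. Batch 3 was the shallowest of the 4, with a median of 3232 counts per annotated nucleus against 4593 to 4931.

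The 250 bases before the transcription start, from RefSeq on build GRCm38.p6, are shown for the members at whose start the authors' list of accessible regions has a peak, since these promoters were accessible in at least some of the nuclei. That list was made over all nuclei and compares no strains. A promoter entry was matched for 6 of the 8 members, with 7 starts between them because Dlgap1 has more than 1. Of these 7, 4 overlapped a peak, against 53.1% of 32851 promoters in the table. Each is written 5′ to 3′ along its gene, with the ETS-type letters AGGAAGT, searched on both strands and so also as ACTTCCT, in capitals. They lie at chr3:87263525-87263774 (minus strand), chr2:163645144-163645393 (minus), chr2:122611278-122611527 (minus) and chr17:70561497-70561746 (plus, an internal start of Dlgap1). The Fcrls window lies almost wholly inside the annotated span of the gene, capitals included, so the start in the table is downstream of the gene's outermost one.
Fcrls: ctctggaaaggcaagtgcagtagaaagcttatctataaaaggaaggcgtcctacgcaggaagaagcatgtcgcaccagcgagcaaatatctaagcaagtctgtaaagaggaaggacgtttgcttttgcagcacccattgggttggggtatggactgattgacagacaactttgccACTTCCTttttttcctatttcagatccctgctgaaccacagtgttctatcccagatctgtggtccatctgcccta
Serinc3: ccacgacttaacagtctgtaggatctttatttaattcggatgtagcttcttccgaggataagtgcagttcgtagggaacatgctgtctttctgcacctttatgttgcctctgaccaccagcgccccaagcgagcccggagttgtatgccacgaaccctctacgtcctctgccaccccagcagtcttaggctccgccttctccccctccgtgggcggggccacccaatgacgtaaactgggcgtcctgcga
Gatm: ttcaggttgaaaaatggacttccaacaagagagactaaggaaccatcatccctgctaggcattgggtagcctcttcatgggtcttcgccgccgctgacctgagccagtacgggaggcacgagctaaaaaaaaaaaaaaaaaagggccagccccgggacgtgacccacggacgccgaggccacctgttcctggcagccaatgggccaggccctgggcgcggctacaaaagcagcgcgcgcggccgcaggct
Dlgap1: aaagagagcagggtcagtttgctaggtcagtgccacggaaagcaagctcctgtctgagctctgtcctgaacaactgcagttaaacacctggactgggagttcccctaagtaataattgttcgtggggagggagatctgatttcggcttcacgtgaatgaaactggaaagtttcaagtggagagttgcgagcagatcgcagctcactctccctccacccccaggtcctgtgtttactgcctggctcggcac

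The Fcrls window holds 1 match, as ACTTCCT, and the other 6 windows of members hold none; the motif was picked after the Fcrls sequence was seen, and 2525 of the 32851 promoters (7.69%) hold it. Windows of Serinc3 and Gatm are rich in CG pairs, with 15 and 17 against a median of 6 over all promoters, and GC contents of 56.0% and 59.2%. The Fcrls window has 5 CG pairs and the Dlgap1 window 7. Ccdc85a, Tafa2 and the first start of Dlgap1 had no peak over these 250 bases.

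On the same build, Fcrls spans chromosome 3 from 87250736 to 87263765 and Serinc3 and Gatm lie on chromosome 2, from 163623273 to 163645149 and from 122594473 to 122611277. None of these 3 is longer than the 21.9 kb of Serinc3. The other 5 are long: P3h2 covers 146.5 kb (chromosome 16, 25959284 to 26105813), Ccdc85a 201.6 kb (chromosome 11, 28385684 to 28587234) and Tafa2 477.2 kb (chromosome 10, 123264024 to 123741204). Dlgap1 covers 852.3 kb (chromosome 17, 69969073 to 70821413) and Csmd3 1211.9 kb (chromosome 15, 47580638 to 48792558). The list of accessible regions places 3 peaks within Fcrls and 161 within Csmd3.

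Macrophage levels by strain follow, as CPM of each mouse's summed macrophage counts after TMM scaling, with the genes tested as the library total, in the order of batches 1 to 4. Fcrls, an Fc receptor-like surface protein that is a marker of mouse microglia, was high in CAST/EiJ and C57BL/6 and low elsewhere. Its CPM in the CAST/EiJ mice were 948, 809.9, 990.1 and 870.2, and in the C57BL/6 mice 514, 745, 783 and 792. A/J came next with 179, 109.8, 121 and 117, and none of its mice overlapped either of those strains. NZO/HlLtJ, NOD/ShiLtJ, 129S1/SvImJ and WSB/EiJ had means of 18.4 to 67.7 CPM whose mice overlapped. PWK/PhJ had 0, 11.1, 0 and 15.1 CPM from 3 counts in all, a range that overlapped those of NOD/ShiLtJ, 129S1/SvImJ and WSB/EiJ, so that these low strains are not ranked. In nuclei thinned to 1000 counts each, a count of Fcrls was found in 47.7% (40.0 to 55.4%; 61.0% unthinned) of CAST/EiJ macrophages and 0.627% (0.076 to 2.25%; 0.806% unthinned) of PWK/PhJ macrophages (exact Clopper-Pearson 95% intervals, which cover counting error only). Here and below, thinned shares leave out nuclei with fewer than 1000 counts, while unthinned shares are over all nuclei. The 2 shares of a pair therefore differ in their nuclei too. The thinned share in Drd1+ neurons, which should lack the gene, was 0.0325%, and their median depth was 6505 counts against 1432 in macrophages.

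Csmd3, which encodes a very large transmembrane protein with CUB and sushi domains, was detected in macrophages of every strain and formed steps. The mice of 129S1/SvImJ had 12148, 9596, 11542 and 12647 CPM, and A/J and NOD/ShiLtJ overlapped them, with 9612 to 12589.8. WSB/EiJ followed with 8642, 8247, 6699.6 and 9455 CPM, every one of its mice below all mice of those 3 strains. NZO/HlLtJ, C57BL/6 and CAST/EiJ overlapped each other, with means of 6051 ± 1225 (SD, n = 4), 5241 ± 546 and 4949 ± 742 CPM, and the highest NZO/HlLtJ mouse was above the lowest WSB/EiJ mouse. PWK/PhJ was lowest, with 2364, 2239, 2234 and 1958 CPM and no mouse near any other strain. A thinned nucleus carried a count of Csmd3 in 63.0% (57.5 to 68.3%; 67.2% unthinned) of PWK/PhJ macrophages and in 87.5 to 98.2% of those of the other strains.

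Serinc3, a multipass membrane protein of the serine incorporator family known to reduce the infectivity of retroviruses, was low in 2 strains. The 129S1/SvImJ mice had 187, 251, 267 and 179.7 CPM and the PWK/PhJ mice 257, 355, 345 and 271; these groups overlapped. All 24 mice of the other 6 strains had 987 to 2174 CPM, above all mice of those strains. Their 6 strain means ran from 1069.8 to 1629 and neighbours in that order overlapped, though every A/J mouse was below every WSB/EiJ mouse. In thinned nuclei the share with a count was 13.3% (9.52 to 18.0%; 21.6% unthinned) in 129S1/SvImJ and 23.5% (19.0 to 28.6%; 28.5% unthinned) in PWK/PhJ, against 59.5 to 68.8% elsewhere.

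Tafa2, a small secreted chemokine-like protein, was present in macrophages of only NOD/ShiLtJ and A/J above a few counts. NOD/ShiLtJ mice had 591, 373, 364 and 421 CPM and A/J mice 358, 268, 218 and 293, and every NOD/ShiLtJ mouse was above every A/J mouse. The other 24 mice had 0 to 26.7 CPM. CAST/EiJ had 0 counts of 306885 in 187 nuclei; a limit of 3 counts is 9.78 CPM, so the pooled CAST/EiJ level was at least 10.6-fold lower than the 103 CPM of the other 7 strains pooled. The thinned shares were 27.0% (22.1 to 32.3%; 34.0% unthinned) in NOD/ShiLtJ, 17.9% (14.5 to 21.8%; 23.1% unthinned) in A/J and at most 0.627% in any other strain.

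P3h2, a prolyl 3-hydroxylase that modifies collagen chains in the secretory pathway, was missing from 1 strain and low in another. WSB/EiJ had 0 counts of 424439 in 297 nuclei from its 4 mice. A limit of 3 counts is 7.07 CPM there, so the pooled WSB/EiJ level was at least 59.5-fold lower than the 421 CPM of the other 7 strains pooled. CAST/EiJ mice had 83.0, 125, 41.3 and 64.9 CPM. The remaining 6 strains had means of 493 to 701 CPM whose mice overlapped, from 397 to 898. In thinned nuclei the share with a count was 0 in WSB/EiJ, 5.81% (2.82 to 10.4%; 8.56% unthinned) in CAST/EiJ and 28.5 to 39.1% in the others.

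Gatm, the amidinotransferase of the first step of creatine synthesis, was low in C57BL/6, PWK/PhJ and CAST/EiJ. C57BL/6 mice had 146, 149, 196 and 91.3 CPM, PWK/PhJ mice 179, 177, 239.9 and 181 and CAST/EiJ mice 344, 202, 371 and 273, so that neighbouring strains overlapped. NOD/ShiLtJ, 129S1/SvImJ and WSB/EiJ were highest, with means of 1030.3 ± 133 (SD, n = 4), 1011 ± 185 and 1003 ± 252 CPM. NZO/HlLtJ ranged widely, with 657, 361, 978 and 926 CPM, and its lowest mouse lay below the highest CAST/EiJ mouse. Thinned shares were 8.76% (5.69 to 12.8%; 12.6% unthinned) in C57BL/6 and 54.9% (49.2 to 60.6%; 68.6% unthinned) in NOD/ShiLtJ.

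Dlgap1 stood out in 129S1/SvImJ, with 1822, 1779, 2328 and 1857 CPM. NZO/HlLtJ was intermediate with 618, 476, 426 and 512 CPM and overlapped no other strain. The other 6 strains had 32.4 to 182 CPM and overlapped one another. The 8 neuron markers, summed in the same macrophage libraries as CPM over all counts, ranged from 525 to 693 over the strains and were 525 ± 188 in 129S1/SvImJ. The 6 astrocyte markers summed to 5017 ± 905 CPM in 129S1/SvImJ against means of 682 to 1229.5 elsewhere, but without Slc1a3, a glutamate transporter gene at rank 3 by F, the other 5 gave 728 CPM there and 405 to 804 elsewhere. Astrocytes as a cluster held Dlgap1 at 913 CPM over all strains. The part of either list in the Dlgap1 level was not tested. A thinned share of 68.9% (63.0 to 74.4%; 80.6% unthinned) of 129S1/SvImJ nuclei held a count, against 27.2% (21.5 to 33.6%; 33.8% unthinned) in NZO/HlLtJ and 3.60 to 8.74% in the rest.

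Ccdc85a, a coiled-coil domain protein, was high in 3 strains and nearly missing in 5. PWK/PhJ mice had 836, 599, 795 and 663 CPM, A/J mice 754, 631, 617 and 638 and NZO/HlLtJ mice 893, 459.6, 516 and 456; the 3 groups overlapped. Every mouse of the other 5 strains had 0 to 41.7 CPM. In CAST/EiJ the total was 1 count. The thinned shares ran from 32.1 to 36.4% in the high strains and 0 to 1.46% in the low ones.

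**Figure D1:**
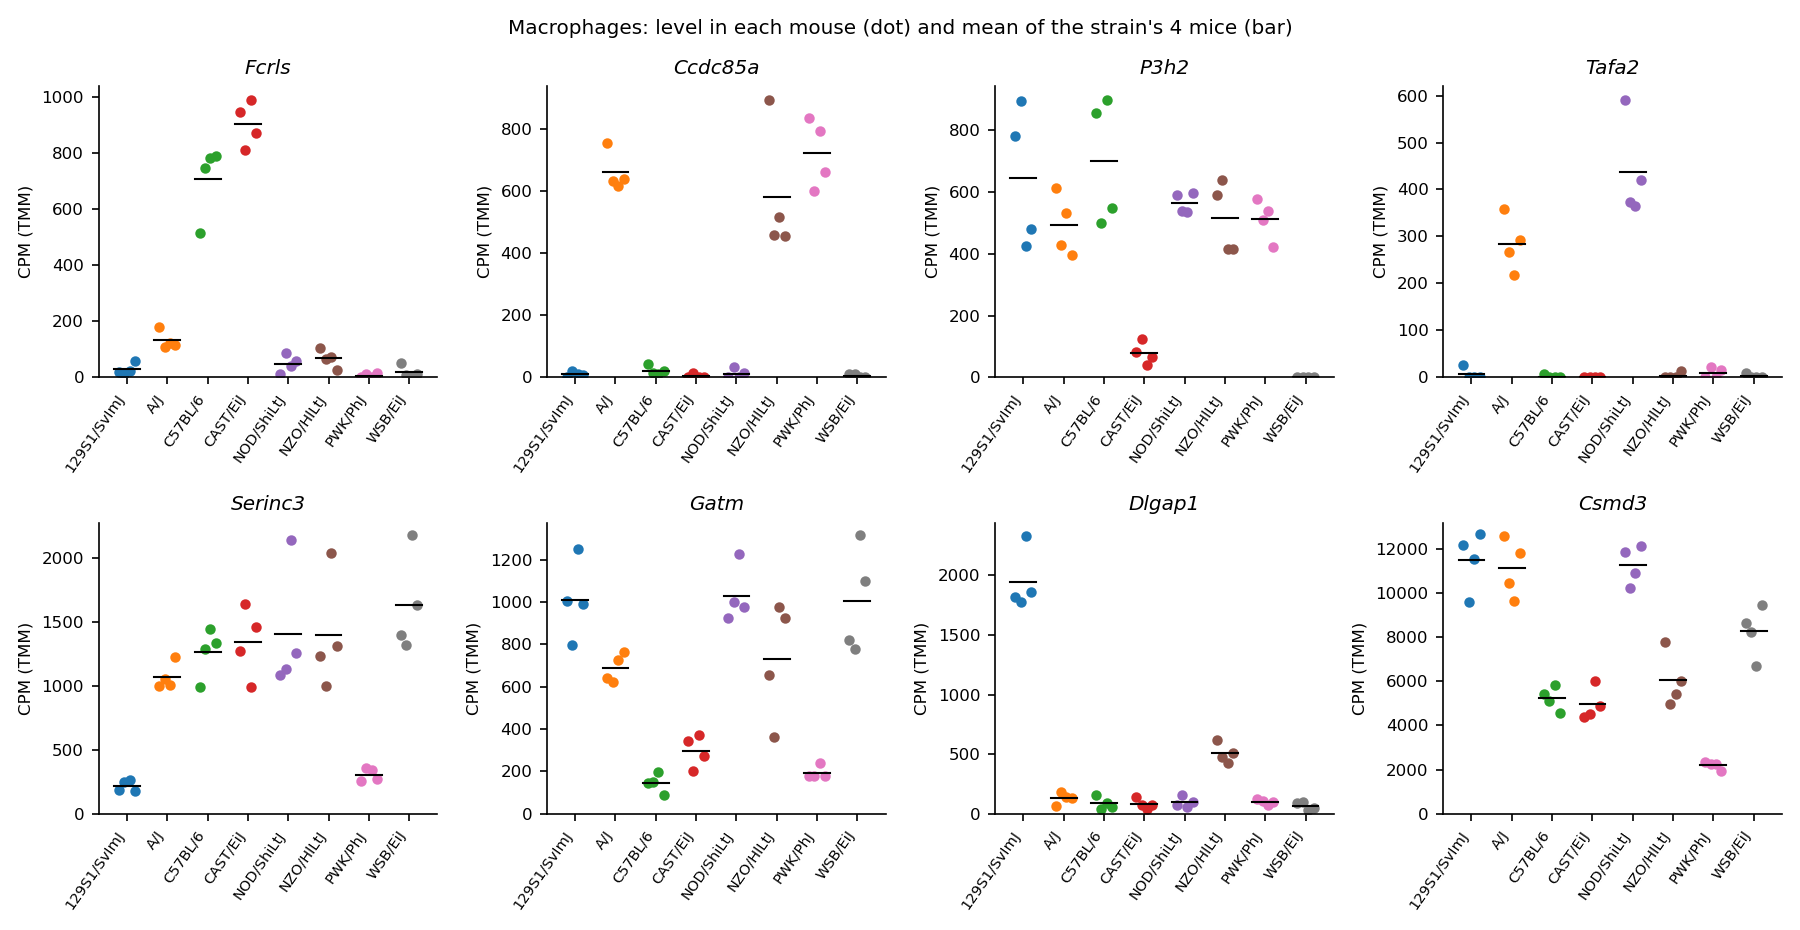
CPM of each gene in the macrophages of each mouse after TMM scaling, 1 panel per gene and 1 column per strain; points are mice and horizontal bars are strain means (n = 4). The high and low strains differ from gene to gene: Dlgap1 is high in 129S1/SvImJ, Fcrls in CAST/EiJ and C57BL/6, and P3h2 is at 0 in WSB/EiJ.

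The strain whose mean log2 CPM lay farthest from the median of the 8 strain means differed between genes, as did its side. It was highest in Fcrls (CAST/EiJ), Ccdc85a (PWK/PhJ), Tafa2 (NOD/ShiLtJ) and Dlgap1 (129S1/SvImJ), and lowest in P3h2 (WSB/EiJ), Serinc3 (129S1/SvImJ), Gatm (C57BL/6) and Csmd3 (PWK/PhJ). For Ccdc85a, Serinc3 and Gatm the mice of that strain overlapped those of another strain, which the mean of the other 7 includes. For Fcrls, P3h2, Tafa2, Dlgap1 and Csmd3 the 4 mice of that strain overlapped none of the other 28. The share of all genes with such a strain was not counted, and the genes were chosen on these values. Over all 3858 genes the strain term called 24.8%, a comparison from which the 8 genes were chosen. On the log2 scale the fitted difference of that strain from the mean of the other 7 was 3.99 for Fcrls, 4.39 for Ccdc85a, 5.80 for Tafa2 and 3.95 for Dlgap1. It was -2.31 for Serinc3, -2.07 for Gatm and -1.84 for Csmd3. Fitted values of Fcrls, Ccdc85a and Tafa2 depend on the prior count, since several strains have next to no counts. Within batches, that strain was the most extreme of the 8 mice in 4 of 4 batches for Fcrls, P3h2, Tafa2, Serinc3, Gatm, Dlgap1 and Csmd3. For Ccdc85a it was so in 2 of 4 batches. The strain was picked from the means of these same mice, so the batch counts describe the values and are no separate support.

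Some genes that mark other cell types also varied with strain in the macrophage nuclei. Whether their counts come from other cells, and their part in these differences, was not tested. Endothelial markers summed to 334 ± 136 CPM in CAST/EiJ, 184 ± 66.3 in NZO/HlLtJ and 156 ± 43.6 in PWK/PhJ against 37.7 to 47.4 in the other strains, mostly from Pecam1. Perivascular macrophage markers were highest in NZO/HlLtJ, 365 ± 303 CPM against 50.5 to 182. Oligodendrocyte markers, from a cell type that carries Gatm, ranged from 4252 to 5222 CPM and were 4835 ± 1180.4 in C57BL/6. Microglia markers ranged from 14581 to 19998 CPM.

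**Figure D2:**
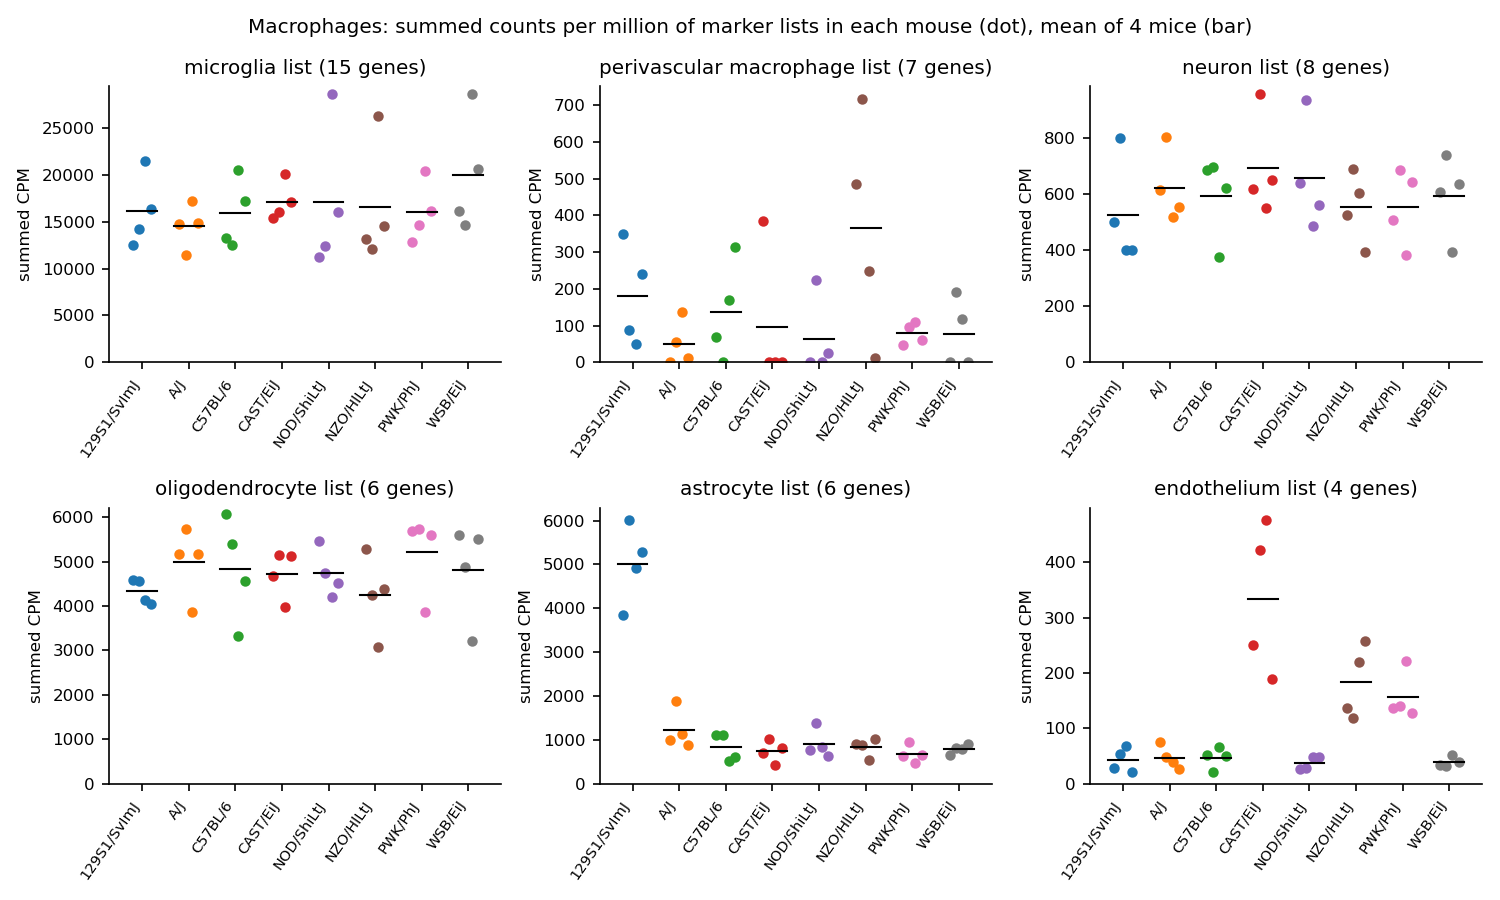
Summed CPM of marker lists in the macrophages of each mouse, by strain; points are mice and horizontal bars are means (n = 4). The astrocyte list is high in 129S1/SvImJ, mostly from Slc1a3, and the oligodendrocyte and microglia lists lie in one range over the 8 strains.

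A subset of 2049 of the 2638 nuclei, defined after the data were seen, had at least 1 count of a microglia marker and none of the vascular, fibroblast, perivascular, monocyte and lymphocyte markers. On summed counts without TMM scaling, the mean in the most extreme strain went from 749.6 CPM over all nuclei to 676 in the subset for Fcrls in CAST/EiJ, and from 1577 to 1599 for Dlgap1 in 129S1/SvImJ. For Serinc3 in 129S1/SvImJ it went from 179 to 199, for Csmd3 in PWK/PhJ from 1784 to 1784, and P3h2 in WSB/EiJ stayed at 0. Apart from P3h2, which cannot move from 0, each mean moved by less than 1 SD of the 4 mice. The subset holds most of the same nuclei, so large moves were unlikely. No nuclei were excluded by neuron, oligodendrocyte or astrocyte markers, so the subset cannot show the part of those cell types.

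Across the 18 clusters, only Fcrls had nearly all its signal in macrophages. Pooled over strains, its level was 161 (95% Poisson interval 149 to 174) CPM there and at most 1.66 in any other cluster (endothelium). Such intervals cover counting error only, not the spread of mice. Over the 32 mice the macrophage mean of Fcrls was 196 CPM (SD 283, range 0 to 878). In pooled values P3h2 and Serinc3 were also highest in macrophages, at 376 (95% Poisson interval 357 to 395) and 843 (95% Poisson interval 814 to 872) CPM. Their macrophage means over the 32 mice were 355 (SD 218) and 871 (SD 452) CPM. P3h2 reached 114 CPM in the cluster named Unknown_2 and 73.0 in Nxph1+ interneurons, and Serinc3 653 in endothelium, 260.0 in fibroblasts and 204 in mural cells. This order did not hold in every strain, though each cluster is scaled on its own. In WSB/EiJ, P3h2 had 0 CPM in macrophages and 124 ± 18.6 (SD, n = 4) in Nxph1+ interneurons. In 129S1/SvImJ, Serinc3 had 221 ± 44.3 CPM in macrophages and 482 ± 140 in endothelium (SD, n = 4). The order was also reversed for Serinc3 in CAST/EiJ, whose endothelium values, given below, exceeded its macrophage mean. Csmd3 was likewise highest in macrophages, with 6439.7 CPM against 2564 in Drd1+ neurons, the next cluster, and 48.6 in astrocytes, the lowest. PWK/PhJ did not show this order, with 2199 ± 172 CPM in macrophages and 2561 ± 204 in Drd1+ neurons (SD, n = 4).

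Pooled over strains, the other 4 genes peaked outside macrophages. Gatm was highest in oligodendrocytes, at 798 CPM, followed by 519.7 in macrophages and 378 in endothelium, and was at 12.2 in Drd1+ neurons. Dlgap1 was highest in Nxph1+ interneurons with 2855 CPM, against 303 in macrophages and 50.3 in oligodendrocytes. Tafa2 was also highest in Nxph1+ interneurons, with 593 CPM, then in the second Drd1+ cluster with 464, and reached 95.3 in macrophages. Ccdc85a was highest in astrocytes at 463 CPM, with 399 in endothelium, 362 in Chat+ interneurons and 234 in macrophages. Pooled macrophage levels hide the strain differences, though each cluster is scaled on its own. The 129S1/SvImJ mean of Dlgap1 in macrophages was 1946 ± 256 (SD, n = 4) CPM. In the same strain it was 647 ± 90.0 in Drd1+ neurons and 3573 ± 1071 in Nxph1+ interneurons (SD, n = 4). Ccdc85a in PWK/PhJ had 723 ± 111 CPM in macrophages and 523 ± 138 in astrocytes, its highest cluster in pooled values (SD, n = 4).

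**Figure D3:**
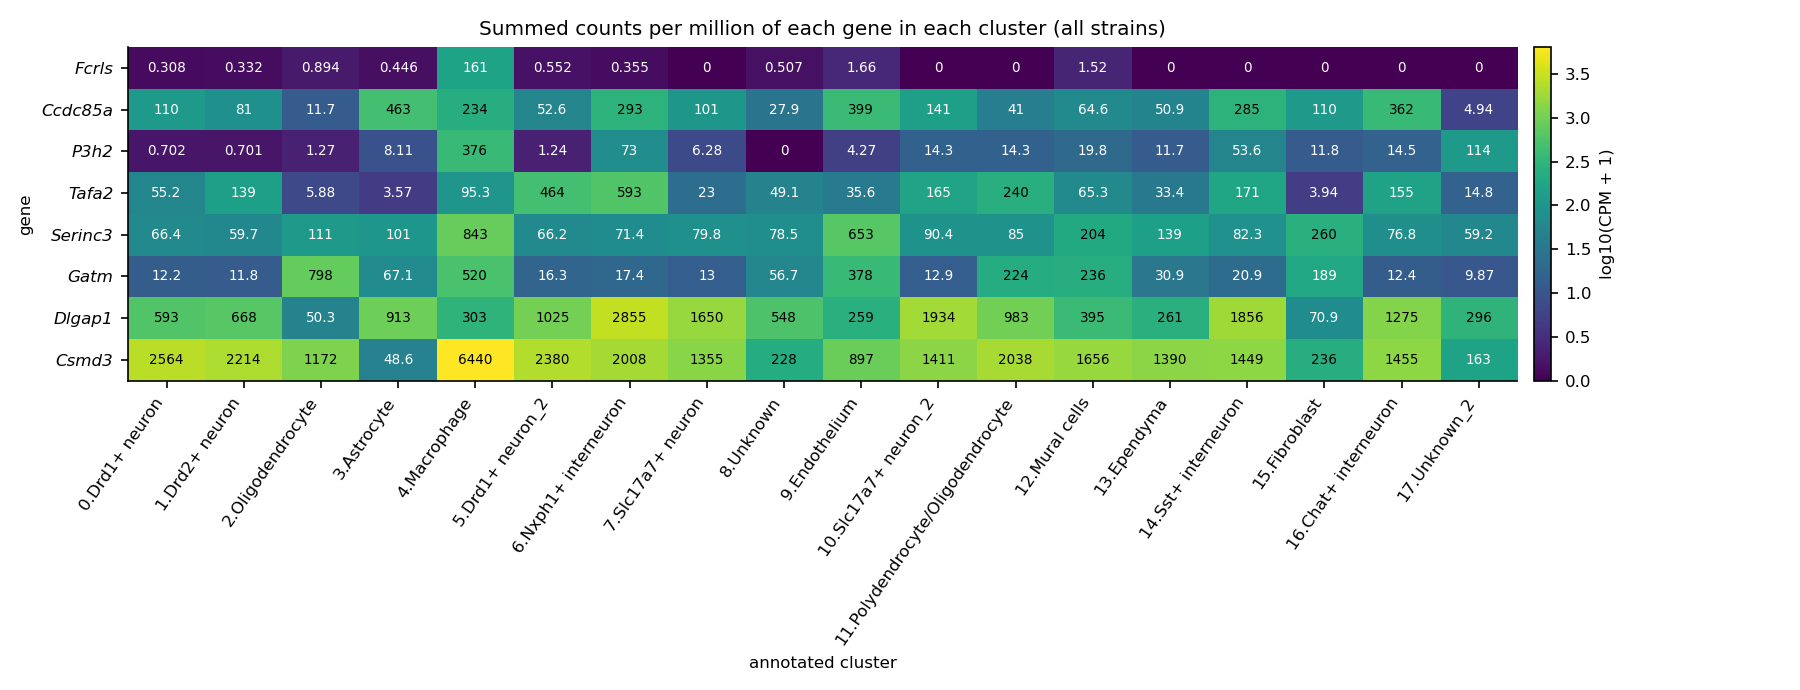
Level of each of the 8 genes in each of the 18 annotated clusters, as CPM over all counts of the cluster, printed in each cell and coloured as log10(CPM + 1); rows are genes and columns clusters. Fcrls is confined to the macrophage column apart from values of at most 1.66 CPM, and Gatm, Dlgap1, Tafa2 and Ccdc85a each have a cluster with a higher level than macrophages.

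The strain term was then tested in the 8 other clusters with enough nuclei, with edgeR's quasi-likelihood test on counts summed per mouse and p-values adjusted by Benjamini-Hochberg over all genes tested in the cluster. The genes were chosen by their strain effect in macrophages. Why other genes with similar effects there were left out is not stated, so a part of these clusters in that choice is not excluded. In Drd1+ neurons 5 of the 6 members tested were called, against 61.7% of all genes, and in Drd2+ neurons 4 of 6, against 55.9%. Oligodendrocytes gave 4 of 5 (34.8% of all genes), leaving out Tafa2, which had few counts there, astrocytes 3 of 5 (21.5%) and the second Drd1+ cluster 3 of 5 (17.3%). Ccdc85a, counted among the 4 in oligodendrocytes, was also sparse there. Its mean over the mice was 11.2 CPM without TMM scaling (median 9.97, range 0 to 34.8). Whether it passed the filter only through its higher strains was not checked, so its call in oligodendrocytes is not read as support. Nxph1+ interneurons gave 1 of 6 (1.53%), endothelium 1 of 6 in 29 mice (3.23%) and the Polydendrocyte/Oligodendrocyte cluster 0 of 4 in 27 mice (1.24%). At an unadjusted p under 0.05 the last had 1, Tafa2, and DESeq2 called 1 there. Most genes varied by strain in the projection neurons, so the counts there say little about the members. Fcrls passed the filter on low counts in none of the 8 clusters, and P3h2 in 1, Nxph1+ interneurons, where its adjusted p was 0.182.

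Serinc3 had a strain far apart from the rest in endothelium and oligodendrocytes, a comparison chosen after its values were seen. In endothelium the 3 CAST/EiJ mice with at least 10 nuclei had 2265, 2652 and 2167 CPM, and all 26 other mice had 69.9 to 995, without overlap (strain term, adjusted p = 2.5e-06, edgeR). In oligodendrocytes CAST/EiJ was again highest, with 199, 187, 224 and 194 CPM, and the other 28 mice had 78.4 to 152 (adjusted p = 7.5e-12). In macrophages CAST/EiJ was not apart, with 1337 ± 276 (SD, n = 4) CPM, and the low 129S1/SvImJ and PWK/PhJ macrophages had no counterpart in Drd1+ neurons: there PWK/PhJ had 83.5 ± 10.3 (SD, n = 4) and 129S1/SvImJ 76.4 ± 6.31 CPM, the 2 highest means, against 60.0 to 70.4 (adjusted p = 6.9e-05). The astrocyte call (adjusted p = 0.0348) was lost without the mice of batch 2 (0.440) or of batch 4 (0.396), without the filter on low counts (0.0964) and without the batch term (0.0570).

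Gatm was called in 1 cluster, the oligodendrocytes in which it is most abundant (adjusted p = 1.5e-11, edgeR). Its order over strains there was another one: CAST/EiJ was lowest with 487, 566, 718 and 593 CPM, 129S1/SvImJ highest with 841, 859, 1309 and 1170.1, and C57BL/6, the lowest strain in macrophages, had 809.9, 871, 1061 and 867. Ranges of most strains overlapped. In Drd1+ neurons, at 10.3 to 15.4 CPM, the adjusted p was 0.300.

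Tafa2 was called in both large projection neuron clusters and in the second Drd1+ cluster. In Drd2+ neurons NZO/HlLtJ had 298, 346, 258 and 255 CPM and CAST/EiJ 63.7, 72.3, 41.3 and 53.0, with the other strains at means of 82.3 to 170.3 (adjusted p = 2.5e-11, edgeR). In Drd1+ neurons NZO/HlLtJ was again highest, 101 ± 13.7 (SD, n = 4) CPM, and PWK/PhJ lowest, 29.5 ± 8.31 (SD, n = 4) (adjusted p = 1.4e-08). Yet NZO/HlLtJ macrophages held next to no Tafa2. In oligodendrocytes PWK/PhJ alone was high, with 35.5, 31.8, 42.5 and 25.6 CPM against 0 to 18.0 in the other 28 mice (adjusted p = 9.5e-11). Of its 125 counts there 65 came from PWK/PhJ, and it passed the filter on low counts only because of the mice of that strain, so this p supports nothing beyond the values. WSB/EiJ was lowest in the second Drd1+ cluster, at 309.5 ± 59.9 (SD, n = 4) CPM against means of 454 to 627 (adjusted p = 1.8e-04).

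Dlgap1 was called in Drd1+ neurons, Drd2+ neurons and astrocytes. NZO/HlLtJ, the second strain in macrophages, was highest in both neuron clusters, with 912, 958, 732 and 735 CPM in Drd1+ and 1017, 1113, 847 and 796 in Drd2+ neurons, while CAST/EiJ had 442 ± 62.1 (SD, n = 4) and 509 ± 39.5 (SD, n = 4) (adjusted p = 1.1e-12 and 5.8e-13, edgeR). Differences between the highest and lowest strain mean were below 2-fold there. In astrocytes A/J was highest with 1224 ± 84.0 (SD, n = 4) CPM and CAST/EiJ lowest with 716 ± 81.9 (SD, n = 4) (adjusted p = 4.4e-06).

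Ccdc85a was called in 6 of the 7 clusters in which it was tested, among them oligodendrocytes, where it was sparse (median 9.97 CPM over the mice). The oligodendrocyte call has the limit of the filter given above. WSB/EiJ, with next to no Ccdc85a in macrophages, had the highest means in Drd1+ neurons, Drd2+ neurons and astrocytes, at 145 ± 1.10, 124 ± 22.4 and 688 ± 181 (SD, n = 4) CPM. The lowest mean in both neuron clusters was that of CAST/EiJ, at 58.2 ± 11.2 (SD, n = 4) and 42.8 ± 6.54 (SD, n = 4) CPM (adjusted p = 7.4e-14 and 1.7e-16, edgeR). In astrocytes NOD/ShiLtJ and C57BL/6 were low, with 230.3, 204, 180.2 and 212 and 299.5, 157, 219 and 179.7 CPM (adjusted p = 7.0e-05). The calls in the second Drd1+ cluster (adjusted p = 0.0297) and in Nxph1+ interneurons (0.0382) were less firm: the first was lost without batch 1 (0.247) or batch 2 (0.162) and with DESeq2 (0.0697), and the second without batch 1 (0.319), batch 2 (0.479) or batch 4 (0.236) and without the batch term (0.0992).

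Csmd3 was called in oligodendrocytes, Drd1+ neurons, Drd2+ neurons and the second Drd1+ cluster, with narrow spans. In oligodendrocytes PWK/PhJ was highest, 1387 ± 72.0 (SD, n = 4) CPM, and A/J lowest, 1095 ± 40.7 (SD, n = 4) (adjusted p = 0.0010, edgeR), so that the lowest strain of macrophages was the highest here. Its adjusted p was 0.0017 in Drd1+ neurons, 0.0046 in the second Drd1+ cluster and 0.0230 in Drd2+ neurons. Each of these 4 calls was lost when some batch was left out. Leaving out batch 1 gave 0.0524 in oligodendrocytes and 0.102 in Drd1+ neurons, leaving out batch 4 gave 0.0744 in the second Drd1+ cluster, and in Drd2+ neurons every omission of a batch lost it (0.0543 to 0.171). Without the batch term it was 0.224 in Drd1+ and 0.421 in Drd2+ neurons.

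**Figure D4:**
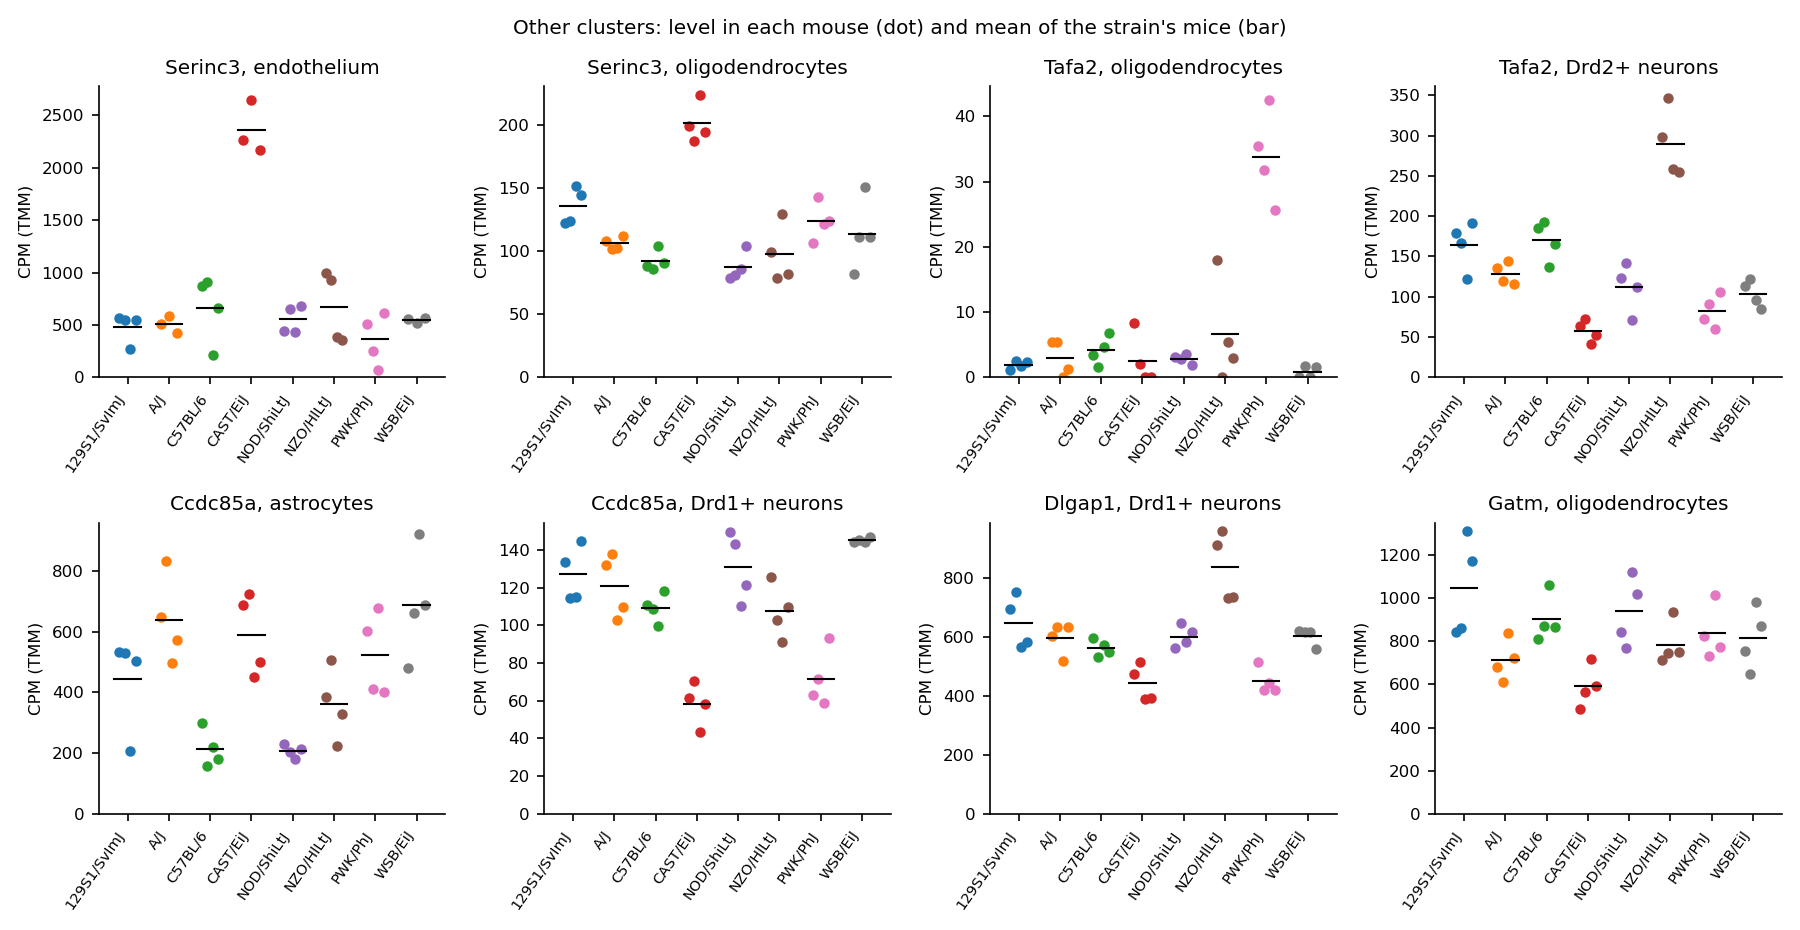
CPM per mouse by strain for called members in clusters other than macrophages; points are mice with at least 10 nuclei and horizontal bars are strain means. Serinc3 in endothelium is high in the 3 CAST/EiJ mice, and Tafa2 in oligodendrocytes in the 4 PWK/PhJ mice.

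For each gene, the strain that is most extreme in macrophages was compared with the average of the remaining 7 in each cluster besides macrophages in which the gene was tested. Of 44 such contrasts 7 passed, where 11.5% of all genes tested in the same 44 were called, 3 in the direction seen in macrophages and 4 opposite to it, and in none of the 44 were the mice of that strain (4, or 3 in 2 contrasts in the Polydendrocyte/Oligodendrocyte cluster) clear of all the others. These calls are read against the share of all genes called in the same contrast. Tafa2 in NOD/ShiLtJ Drd1+ neurons was higher by 0.55 (SE 0.13; adjusted p = 0.0038) on the log2 scale, from 73.1 ± 3.97 CPM (SD, n = 4) against 53.8 ± 25.8 (SD, n = 28), where 15.9% of genes were called (edgeR). Dlgap1 in 129S1/SvImJ was higher by 0.17 (SE 0.06; adjusted p = 0.0433) in Drd1+ neurons (12.3% of genes called) and by 0.19 (SE 0.06; adjusted p = 0.0264) in Drd2+ neurons (11.1%).

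In the opposite direction, Ccdc85a, high in PWK/PhJ macrophages, was lower in PWK/PhJ Drd1+ neurons, by a log2 difference of -0.62 (SE 0.08; adjusted p = 5.3e-08), from 71.7 ± 15.2 CPM (SD, n = 4) against 114 ± 28.7 (SD, n = 28); 34.3% of genes were called there (edgeR). In Drd2+ neurons its log2 difference was -0.50 (SE 0.09; adjusted p = 8.3e-06), where 30.3% were called. Csmd3, lowest in PWK/PhJ macrophages, was higher in PWK/PhJ oligodendrocytes by 0.22 (SE 0.06; adjusted p = 0.0066), from 1387 ± 72.0 CPM (SD, n = 4) against 1187 ± 107 (SD, n = 28) (15.7% of genes called). Serinc3, lowest in 129S1/SvImJ macrophages, was higher in 129S1/SvImJ Drd1+ neurons by 0.20 (SE 0.07; adjusted p = 0.0378) (12.3% called). The Ccdc85a and Tafa2 contrasts passed in all alternatives run. The other 4 did not: Serinc3 was lost with any batch left out (0.0571 to 0.174), Dlgap1 in Drd1+ neurons without batch 1 (0.189), 2 (0.311) or 4 (0.0545), in Drd2+ neurons without batch 2 (0.212), 3 (0.0672) or 4 (0.0539), and Csmd3 without batch 1 (0.0569). Without the batch term the 3 contrasts of 129S1/SvImJ were lost (0.163 for Serinc3, 0.166 and 0.0933 for Dlgap1), and without the filter on low counts that of Csmd3 (0.0982) and that of Serinc3 (0.104). Scaling by relative log expression gave 0.0548 for Dlgap1 in Drd1+ neurons.

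**Figure D5:**
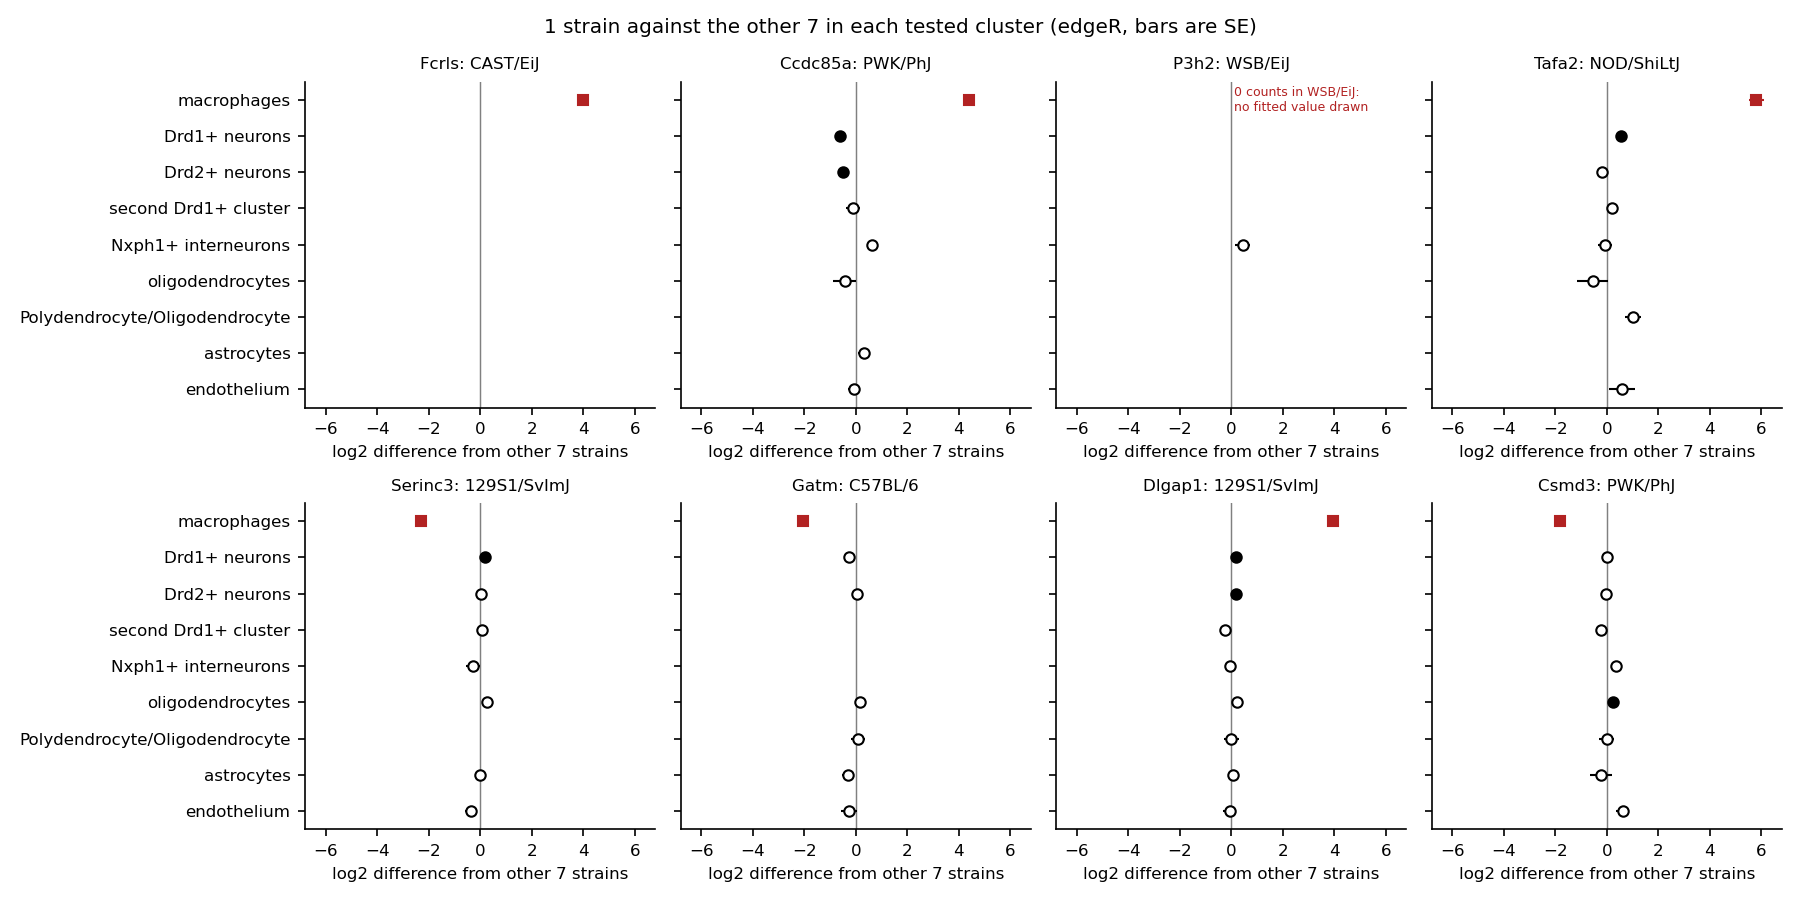
Log2 difference of the most extreme macrophage strain from the mean of the other 7 strains, for each gene and cluster; bars are standard errors, filled circles passed the test and open ones did not. Macrophage values, from which the genes were chosen, are red squares, with none drawn for P3h2, which has 0 counts in WSB/EiJ. They lie between -2.31 and 5.80, and the points of other clusters that passed between -0.62 and 0.55. Points that did not pass reach 1.01, for Tafa2 in the Polydendrocyte/Oligodendrocyte cluster.

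Whether a strain pattern differs between clusters was tested by the interaction of strain and cluster, with the mouse as block, for 4 pairs of clusters other than macrophages. Between Drd1+ and Drd2+ neurons 4 of 6 members were called, against 4.58% of genes: Ccdc85a (adjusted p = 1.1e-06), Csmd3 (0.0148), Tafa2 (0.0159) and Dlgap1 (0.0267), by edgeR. For Tafa2, for example, NZO/HlLtJ exceeded CAST/EiJ in both, with 101 ± 13.7 against 36.6 ± 3.65 CPM in Drd1+ neurons and 289 ± 42.6 against 57.6 ± 13.4 in Drd2+ neurons. Without the block all 4 calls were lost, with adjusted p from 0.198 to 1.00. Of the 4, Ccdc85a passed with each batch left out; Tafa2 was lost without batch 1 (0.301) or 4 (0.208), Dlgap1 without batch 1 (0.266), 2 (0.118) or 3 (0.258) and Csmd3 without batch 1 (0.118) or 2 (0.338).

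Between Drd1+ neurons and oligodendrocytes, leaving out Tafa2, 2 of 5 were called (16.9% of genes): Serinc3 (adjusted p = 7.7e-05) and Ccdc85a (0.0078), the last lost without batch 1 (0.0792) or 3 (0.141). Between Drd1+ neurons and astrocytes 1 of 7 was called (11.4%), Ccdc85a (adjusted p = 7.7e-11): CAST/EiJ, the lowest strain in the neurons, had 590.4 ± 136 (SD, n = 4) CPM in astrocytes, the third highest mean. The 7 include P3h2, which failed the filter on low counts in each of these clusters alone, and Tafa2, which failed it in astrocytes. This count is therefore not comparable with those of the other pairs. Oligodendrocytes and astrocytes gave 2 of 5 without Tafa2 (10.9%): Ccdc85a (2.7e-05) and Serinc3 (0.0299), by edgeR. Tafa2 was left out of both counts with oligodendrocytes because it passed the filter on low counts there only through PWK/PhJ. It also failed the filter in astrocytes, with 40 counts in 4748 nuclei. Ccdc85a was kept in both counts, though it was sparse in oligodendrocytes. The Serinc3 call was lost with any batch left out (0.0547 to 0.668), without the block (0.0564) and without the filter on low counts (0.0698). An interaction with macrophages would use the contrast that chose the genes and was not tested.

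Over the 8 strains, macrophage and other-cluster means of the same gene went together in some pairs and against each other in others. The 44 Pearson correlations of strain means on the log2 scale ran from -0.88 (Serinc3, Drd1+ neurons) to 0.73 (Ccdc85a, Nxph1+ interneurons). Csmd3 in oligodendrocytes had -0.84, and Dlgap1 in both large neuron clusters 0.56. Each rests on 8 points whose libraries come from the same mice and batches, and is a description only.

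Among themselves, the 8 genes did not follow 1 pattern over the 32 mice in macrophages. Their pairwise Pearson correlations of log2 CPM ran from -0.58 (Dlgap1 and Serinc3) to 0.77 (Csmd3 and Gatm), over mice that share libraries by batch. Genes of the closest pattern, by the 3 highest correlations among the 3857 other genes, were B530045E10Rik (0.65), Clec4a2 (0.64) and Nlrp1b (0.61) for Fcrls and 2510009E07Rik (0.90), Sdk1 (0.86) and Gm13479 (0.84) for Csmd3. For Serinc3 they were Naip5 (0.78), Zfp69 (0.69) and Pwwp2a (0.68), and for Tafa2 Adcy8 (0.79), Atg10 (0.71) and Arl4c (0.70). P3h2 was closest to Capn3 (0.91), Cacnb2 (0.84) and Mpp7 (0.70), Gatm to Ccdc80 (0.83), Csmd3 (0.77) and Numb (0.77), Dlgap1 to Gm3453 (0.91), Colec12 (0.78) and Slc1a3 (0.73) and Ccdc85a to Gm30382 (0.87) and St8sia4 (0.67).

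Relatives of the 8 genes were mostly too sparse in macrophages to test. Of 13 Fc receptor and Fc receptor-like genes 3 passed the filter, and 2 were called against 24.8% of genes: Fcer1g, the signalling subunit shared by Fc receptors (279.8 in A/J to 539.8 in CAST/EiJ CPM, adjusted p = 0.0023), and Fcgr3 (148 in CAST/EiJ to 377 in WSB/EiJ CPM, 0.0065), by edgeR. The activating receptor Fcgr1 was not (0.540). Of 12 collagen prolyl and lysyl hydroxylase genes and their partners 4 were tested and 2 called, the lysyl hydroxylase Plod1 (42.7 in CAST/EiJ to 263 in WSB/EiJ CPM, 2.5e-06) and the prolyl isomerase Ppib (0.0465). Of 12 Dlgap and scaffold genes 5 were tested and 1 called, Dlg2 (143 in C57BL/6 to 863 in CAST/EiJ CPM, 0.0020), whose highest strain was not that of Dlgap1.

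Serinc1, the 1 Serinc relative of 4 that was tested in macrophages, had means of 166 in WSB/EiJ to 228 in PWK/PhJ CPM and an adjusted p of 0.927 (edgeR), and Ckb, the 1 of 6 creatine genes, had 638 in WSB/EiJ to 776 in A/J CPM and 0.903. No relative of Csmd3 (2 genes), Tafa2 (4) or Ccdc85a (2) passed the filter there. In Drd1+ neurons, against 61.7% of all genes, both Csmd relatives, both tested Serinc relatives, both tested Tafa relatives, 7 of 12 scaffold genes and 0 of 2 Ccdc85 relatives were called. In astrocytes, against 21.5%, both Csmd relatives were called, with Csmd1 at 335 in NOD/ShiLtJ to 2252 in NZO/HlLtJ CPM, while Csmd3 itself was not. Of the microglia markers, 9 of 15 were called in macrophages, against 24.8% of all genes there. Yet the median fitted log2 difference between highest and lowest strain was 0.61 for these 15 markers, below the 0.84 of all tested genes. Olfml3, a secreted olfactomedin-domain protein, ranged from 37.2 in PWK/PhJ to 778 in CAST/EiJ CPM.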

How the data were processed

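Single-nucleus Multiome data of striatum from 32 mice in 4 pooled batches were used. The authors deposited 1 matrix of raw UMI counts per batch and a table of nuclei with cluster, strain and quality values (named categories and other numbers), and the peak list used here holds regions only. Per the submitters' processing notes, Cell Ranger ARC 2.0.0, bcl2fastq 2.20.0.422 and the genome build GRCm38 (mm10) were used; the settings of alignment and counting are not given in the sources used here. Nuclei without an annotation in the deposited table were left out, so doublet removal and the assignment of nuclei to strains are the authors' own. The accessibility matrix was not analysed here.

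Counts were summed per mouse and cluster for libraries of at least 10 nuclei, in the 9 of 18 clusters with at least 3 such mice in every strain. edgeR 4.0.16 (R 4.3.3) was run with filterByExpr, TMM scaling and robust quasi-likelihood fits of strain and batch; the strain term was a joint test, contrasts set 1 strain against the mean of the other 7, and interactions of strain and cluster had the mouse as block. Replicate numbers are batches, and each batch holds 1 mouse of each strain, which is where the pairing comes from. An adjusted p under 0.05 (Benjamini-Hochberg, all genes tested) was a call, and a prior count of 2 went into log2 CPM values. Shares of nuclei were taken after thinning to 1000 counts, with nuclei of fewer counts left out, and unthinned shares are over all nuclei. Intervals are exact Clopper-Pearson or Poisson 95% intervals and cover counting error only; a count of 0 allows up to 3. Total counts per batch were 109337007 to 133840909. The strain fit was tried on simulated macrophage libraries with known changes in 1 strain. Fits of other clusters and of interactions were not simulated.

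The members, marker lists and gene families were chosen with earlier results of these data known. Genes named are the members, the 3 genes most correlated with each in macrophages (1 of them is not reported here), the family and marker genes, and the other genes at the top of the F ranking. Promoters are RefSeq's. Alternatives were RLE scaling, no filter, no batch or mouse block, libraries of at least 20 nuclei, DESeq2 1.42.0 for the strain term, and each batch left out; the subset of nuclei by markers was added after seeing the data.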

Additional observations from a re-analysis of the deposited data

Results flagged for a closer look

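In 12 of the 64 combinations of a member and a strain in macrophages, 1 of the 4 mice lay far from the other 3, by its gap relative to the whole range (chance alone flags about 1 in 20 such groups). Of the 12, 5 come from 1 to 3 counts where the other mice have 0. For Ccdc85a these mice were the A/J mouse of batch 1 (754 CPM, others 617 to 638), the NZO/HlLtJ mouse of batch 1 (893, others 456 to 516) and the CAST/EiJ mouse of batch 2 (15.6, 1 count). For Fcrls they were the A/J mouse of batch 1 (179 CPM, others 109.8 to 121) and the C57BL/6 mouse of batch 1 (514, others 745 to 792). For Tafa2 they were the 129S1/SvImJ (26.7 CPM), C57BL/6 (6.95) and WSB/EiJ (10.3) mice of batch 1 and the NZO/HlLtJ mouse of batch 4 (13.8), all with their group's other mice at 0. The 129S1/SvImJ mouse of batch 3 had 2328 CPM of Dlgap1 (others 1779 to 1857), the PWK/PhJ mouse of batch 3 had 239.9 of Gatm (others 177 to 181) and the NOD/ShiLtJ mouse of batch 3 had 2135 of Serinc3 (others 1085 to 1256).

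The interaction of strain and cluster had an adjusted p (edgeR) under the threshold for the members and pairs of clusters that follow. Between Drd1+ and Drd2+ neurons, where 4.58% of all genes were called, these were Ccdc85a (1.1e-06), Tafa2 (0.0159), Dlgap1 (0.0267) and Csmd3 (0.0148), and all 4 were lost without the block. Drd1+ neurons and oligodendrocytes (16.9% of all genes) gave Ccdc85a (0.0078), Tafa2 (2.1e-15, from only 125 counts in oligodendrocytes) and Serinc3 (7.7e-05), and Drd1+ neurons and astrocytes (11.4%) gave Ccdc85a (7.7e-11). Oligodendrocytes and astrocytes (10.9%) gave Ccdc85a (2.7e-05), Tafa2 (0.0109) and Serinc3 (0.0299). Tafa2 had too few counts in oligodendrocytes and astrocytes for its values there to compare strain patterns, and Serinc3 in the last pair was lost with any batch left out. Ccdc85a was sparse in oligodendrocytes too. No explanation was tested for any of them.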

How the results depend on the processing

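No called value changed direction under the alternatives run. Counts of genes called by the strain term moved by over 1.5 times as follows. Ranges run over all omissions of a batch and are given where at least 1 value moved that far. Without the filter on low counts they were 468 in Nxph1+ interneurons (61 with it), 527 in endothelium (161) and 221 in the Polydendrocyte/Oligodendrocyte cluster (26); DESeq2 gave 109 in the first and 75 in the last. Leaving out 1 batch gave 1138 to 1675 genes in astrocytes (1767), 628 to 780 in the second Drd1+ cluster (958), 24 to 46 in Nxph1+ interneurons, 63 to 138 in endothelium and 6 to 58 in the Polydendrocyte/Oligodendrocyte cluster. For interactions it gave 1510 to 2246 genes in Drd1+ neurons and oligodendrocytes (2352), 1011 to 1462 in Drd1+ neurons and astrocytes (1633), and 717 to 1077 in oligodendrocytes and astrocytes (1103). The count of member contrasts called went from 7 to 4 to 6.

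Without the replicate block (the batch, or the mouse in interactions), the pairing was dropped: endothelium had 71 genes called, the interaction of Drd1+ and Drd2+ neurons 69 (631 with the block), and 4 member contrasts passed; the counts of called genes in the other fits stayed within 1.5 times. Calls of single members that this and other settings lost are given beside them above: of the values for single genes under alternatives, 585 stayed on their side, 58 lost the call, 9 gained one and 12 values without a test moved by more than their spread. Among 37 contrasts that were not called, 29 of 284 values changed sign, each with an adjusted p of at least 0.906, and 2 passed.

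Of 64 shares of nuclei, 34 lay within the thinned share's interval when not thinned and taken over all nuclei, shallow ones included. Libraries of at least 20 nuclei could not be fitted in endothelium and in the Polydendrocyte/Oligodendrocyte cluster, and DESeq2 was run for the strain term only. With 4 mice a strain and as few as 27325 counts in a macrophage library, 1 count of a gene weighs most in the smallest library, and low strains cannot be ranked among themselves. The sex of single mice was not used here. The 9 clusters not tested have too few nuclei per mouse.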
